A study of Rattus norvegicus with 24 samples.

Results

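The genes described here are enzymes, regulators and 1 carrier of sterol and fatty acid synthesis, a list of 30 genes looked up by name in the deposited table of 23095 rat genes. Of the 30, 29 were found by name, and all 29 passed the filter on low counts. The remaining one, Fdps, had no row of that name and is given apart. Dorsal skin of Sprague-Dawley rats was profiled by bulk RNA sequencing 7 days after injection, with 6 libraries in each of 4 groups. ID gel skin had received T-gel, a biodegradable polymer gel, into the dermis, and ID saline skin had received saline at the same depth. SC gel skin had received T-gel under the skin, and SC saline skin had received saline there. All rats were of 1 strain, and the labels used here name no genetic modification, age or sex. The study asked how the response to the gel depends on the depth of injection. The labels do not say that the 6 libraries of a group come from separate animals, so every p-value below measures the spread between these samples, which may be technical.

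Cholesterol is built from acetyl-CoA through the mevalonate pathway to squalene, and from squalene through lanosterol and a chain of demethylations, reductions and isomerisations. Fatty acids are built from cytosolic acetyl-CoA by acetyl-CoA carboxylase and fatty acid synthase, then elongated and desaturated in the endoplasmic reticulum. Both routes are switched on by the sterol regulatory element binding proteins (SREBPs), which INSIG1 helps to hold in the endoplasmic reticulum when sterols are plentiful. In skin these routes are best known from sebaceous glands, which secrete sebum, and from the epidermis, whose barrier holds cholesterol, ceramides and long fatty acids.

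The promoters of Hmgcs1, Sqle, Insig1 and Fasn were chosen for printing, but the promoter table used held no window for Sqle or Fasn. Hmgcs1 and Insig1, which are printed, are textbook SREBP targets. The gel effect on Insig1 was larger in ID skin and that on Hmgcs1 larger in SC skin. RefSeq's promoter table, on the GRCr8 build, held a window of 250 bases before to 50 bases after a start for 22 of the 29 genes. It was searched on both strands for TCACNCCAC (a form of the sterol regulatory element, where N is any base), CCAAT (the NF-Y box) and GGGCGG (the Sp1 box), the factors NF-Y and Sp1 being known partners of SREBPs. Capitals mark the matches, read 5′ to 3′ on the gene's strand. The Hmgcs1 window is chr2:53382054-53382353, plus strand, and the Insig1 window is chr4:8057720-8058019, minus strand.
Hmgcs1: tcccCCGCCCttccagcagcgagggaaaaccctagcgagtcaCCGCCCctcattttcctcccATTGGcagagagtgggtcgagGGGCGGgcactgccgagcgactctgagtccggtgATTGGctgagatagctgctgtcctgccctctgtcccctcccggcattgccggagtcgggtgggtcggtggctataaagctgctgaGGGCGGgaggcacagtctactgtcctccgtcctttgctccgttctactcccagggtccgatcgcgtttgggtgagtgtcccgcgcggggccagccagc
Insig1: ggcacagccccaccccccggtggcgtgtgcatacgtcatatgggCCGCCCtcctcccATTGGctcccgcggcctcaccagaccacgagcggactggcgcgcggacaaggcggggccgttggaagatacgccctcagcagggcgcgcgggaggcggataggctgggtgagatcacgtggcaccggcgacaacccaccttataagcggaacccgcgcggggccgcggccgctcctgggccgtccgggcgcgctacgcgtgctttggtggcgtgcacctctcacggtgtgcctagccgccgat
Hmgcs1 held 2 NF-Y and 4 Sp1 boxes, and Insig1 held 1 NF-Y and 1 Sp1 box, with no overlap between matches. Over the 22 genes, 18 had an NF-Y box and 19 an Sp1 box. By window, counting both Srebf1 starts, these were 82.6% and 87.0% of 23, against 37.5% and 33.1% of all 33469 windows in the table. TCACNCCAC was in 0 of the 23 windows and in 1.1% of all windows. A match describes the letters of these windows and says nothing of binding.

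Library totals ran from 14024353 to 18821730 counts, and the lowest correlation between libraries of a group was 0.933, in ID gel. Levels are given as CPM, depth-scaled counts, after TMM, a normalization that assumes most genes do not change. The TMM factors were 0.860 to 0.947 in ID gel and 1.07 to 1.22 in SC gel, outside each other's range. As labelled, the tissue expressed epidermal keratinocyte markers in every group, but it also held skeletal muscle. The summed level of 12 muscle markers was 13.1 to 18280 CPM in ID gel and 53350 to 68860 CPM in ID saline, and 14.0 to 1982 CPM in SC gel and 31920 to 80790 CPM in SC saline. Of these 12, 11 were lower in ID gel than in ID saline and 12 were lower in SC gel than in SC saline. Hair follicle markers were lower for 22 of 22 in ID gel and for 17 of 22 in SC gel, and 2 of the 22 were at 0 in all ID gel libraries. Of all tested genes, 37.0% were lower in ID gel and 26.1% in SC gel, each against its own saline. The part of these differences in tissue content in the results below was not tested.

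In ID gel skin all 3 regulators were higher and 5 of 9 fatty acid enzymes lower, while in SC gel skin all 16 sterol enzymes measured were higher. In ID gel against ID saline, 10 of 29 genes were higher and 5 lower, at an adjusted p under 0.05 from edgeR's quasi-likelihood test, where 36.6% of all 14763 tested genes were higher and 37.0% lower. The share of higher members, 34.5%, was near that background, and 5 of the 16 sterol enzymes (31.2%) were higher, a share below it. Their median log2 fold change was 0.12, beside -0.01 for all tested genes. In SC gel against SC saline, 23 were higher and 1 was lower, where 24.7% of all tested genes were higher and 26.1% lower. Their median log2 fold change there was 0.69, beside 0.00 for all tested genes.

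Called higher at both depths were 7 genes, Mvd, Sqle, Msmo1, Sc5d, Dhcr7, Srebf1 and Insig1. Acly, Elovl5, Elovl6 and Me1 were lower in ID gel and higher in SC gel, each against its own saline. Of the genes called at 1 depth, Srebf2, Fads1 and Stard4 were higher and Fasn lower in ID gel, and 12 genes were higher and Fads2 lower in SC gel. Acss2 was called at neither depth. Every ID gel library lay above every ID saline library for 4 of the 29 genes and below for 4, where this held for 29.1% and 27.5% of all tested genes. Every SC gel library lay above every SC saline library for 12 genes and below for 1, where this held for 11.0% and 14.0% of all tested genes. With the deposited FPKM values, which carry no TMM scaling, 8 of the 29 were higher and 6 lower in ID gel, where 31.1% of the 13261 genes tested on that scale were higher and 41.6% lower (pseudocount 1). In SC gel 27 were higher and 1 lower on that scale, where 43.9% of the genes were higher and 15.0% lower. On that scale the median of all genes stood at -0.10 or -0.13 (log2, pseudocount 1 or 0.1) for ID gel and at 0.19 or 0.23 for SC gel.

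**Figure D1:**
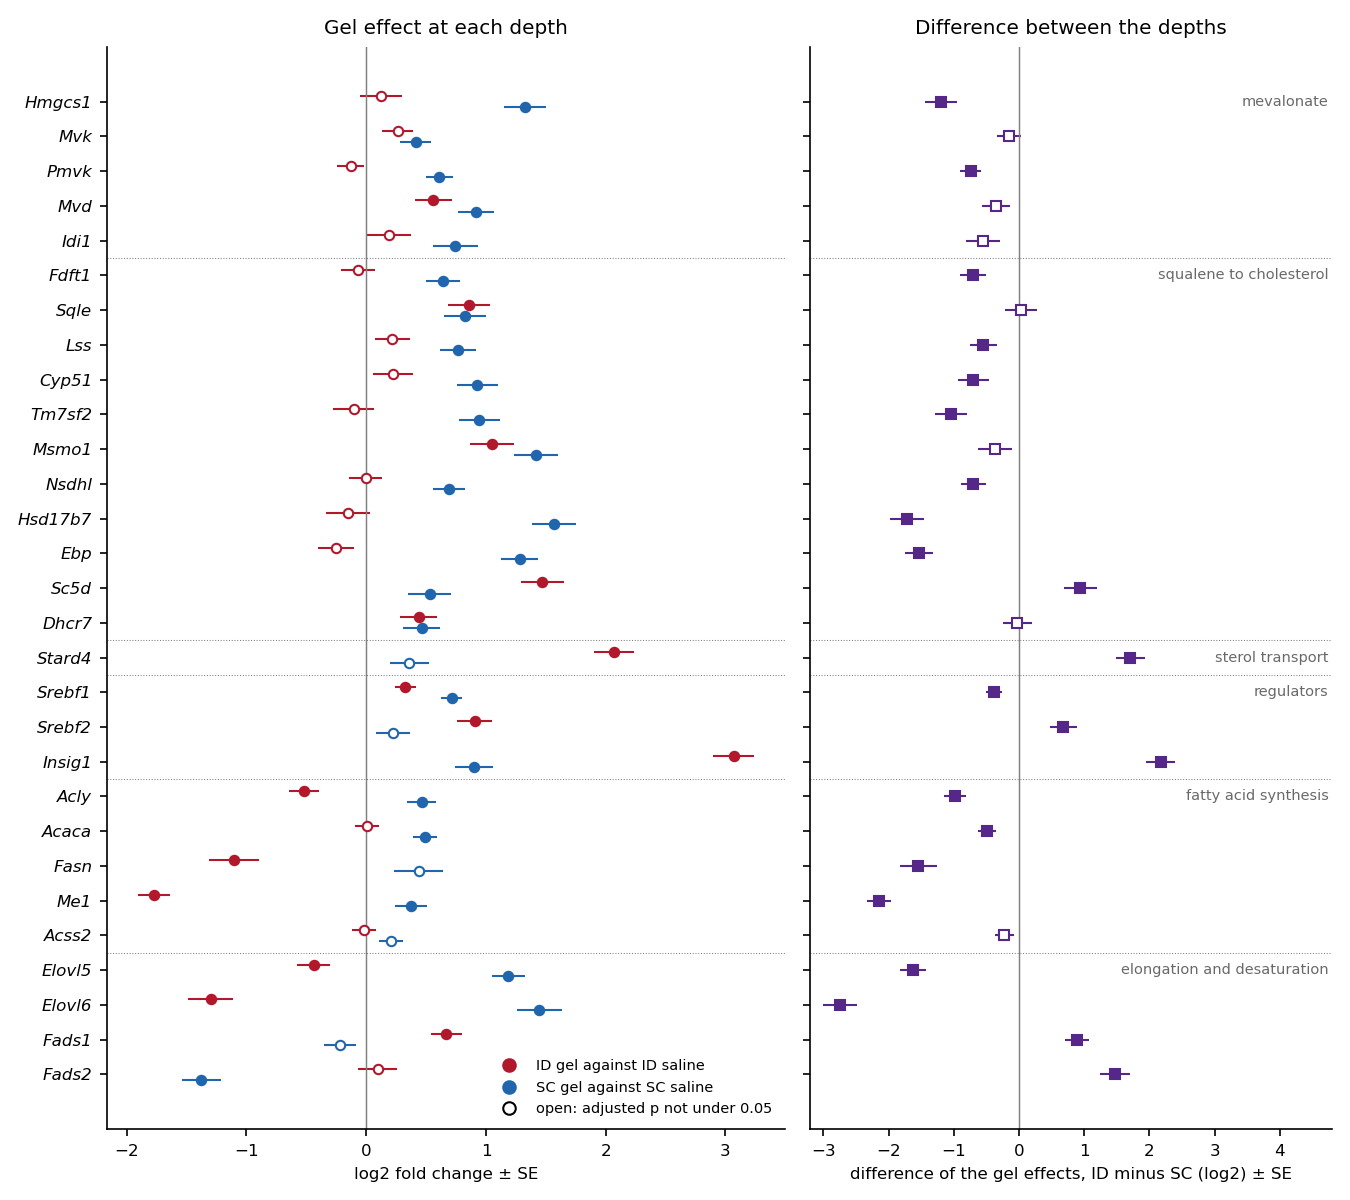
Left, log2 fold change ± SE of each of the 29 genes for ID gel against ID saline (red) and SC gel against SC saline (blue), with open symbols where the adjusted p was not under 0.05. Right, the difference of the gel effects, ID minus SC, on the same scale. All 16 sterol enzymes lie right of 0 in SC gel, Insig1 stands at 3.07 in ID gel, and Elovl6 has the lowest difference, -2.74.

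All 3 regulators were higher in ID gel, and Insig1 by more than any other gene of the list. Insig1 (ENSRNOG00000006859) encodes the protein that retains SREBPs in the endoplasmic reticulum and is itself an SREBP target. Its lowest, median and highest levels were 740.0, 1264 and 1940 CPM in ID gel, against 138, 159 and 179 CPM in ID saline. In SC gel they were 184, 250.0 and 282 CPM, against 114, 130.4 and 142 CPM in SC saline. Gel and saline libraries did not overlap at either depth. Its log2 fold change was 3.07 ± 0.17 (SE; 8.39-fold; adjusted p = 1.07e-12) in ID gel and 0.90 ± 0.16 (1.86-fold; adjusted p = 7.04e-05) in SC gel. The difference of the gel effects was 2.17 ± 0.23 (adjusted p = 8.4e-08).

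Srebf2, which encodes the SREBP best known for sterol genes, was higher in ID gel. It had 127, 178 and 215 CPM (lowest, median, highest) in ID gel against 74.1, 95.6 and 114 CPM in ID saline, with no overlap. In SC gel it had 76.7, 102 and 109.9 CPM against 65.2, 83.5 and 98.7 CPM in SC saline, and these libraries overlapped. Its log2 fold change was 0.91 ± 0.15 (adjusted p = 6.14e-06) in ID gel and 0.22 ± 0.14 (adjusted p = 0.203) in SC gel. The difference, 0.68 ± 0.20 (adjusted p = 0.00677), passed the test here but was 0.29 with the deposited FPKM values (adjusted p = 0.28 and 0.295 with a pseudocount of 1 and 0.1) and 0.52 with gel replicates 4 to 6 alone (adjusted p = 0.0935).

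Srebf1, whose products act mainly on fatty acid genes, had 90.1, 110.5 and 124 CPM in ID gel against 74.0, 88.0 and 97.1 CPM in ID saline. It had 92.4, 112 and 119 CPM in SC gel against 56.2, 68.5 and 73.8 CPM in SC saline. The libraries overlapped at the intradermal depth and were apart at the subcutaneous depth. Srebf1 changed by 0.33 ± 0.09 (adjusted p = 0.00196) in ID gel and 0.71 ± 0.09 (adjusted p = 7.6e-07) in SC gel, a difference of -0.39 ± 0.12 (adjusted p = 0.0108). The ID gel call was lost with the FPKM values, at 0.17 (adjusted p = 0.163 and 0.165), and with gel replicates 4 to 6 alone, at 0.23 (adjusted p = 0.0807). Compared directly, the gel groups did not differ in Srebf1 (-0.02 ± 0.09, ID against SC, adjusted p = 0.821). The saline groups did, with ID saline higher by 0.36 ± 0.09 (adjusted p = 0.0293). The counts do not tell the Srebf1 isoforms apart.

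**Figure D2:**
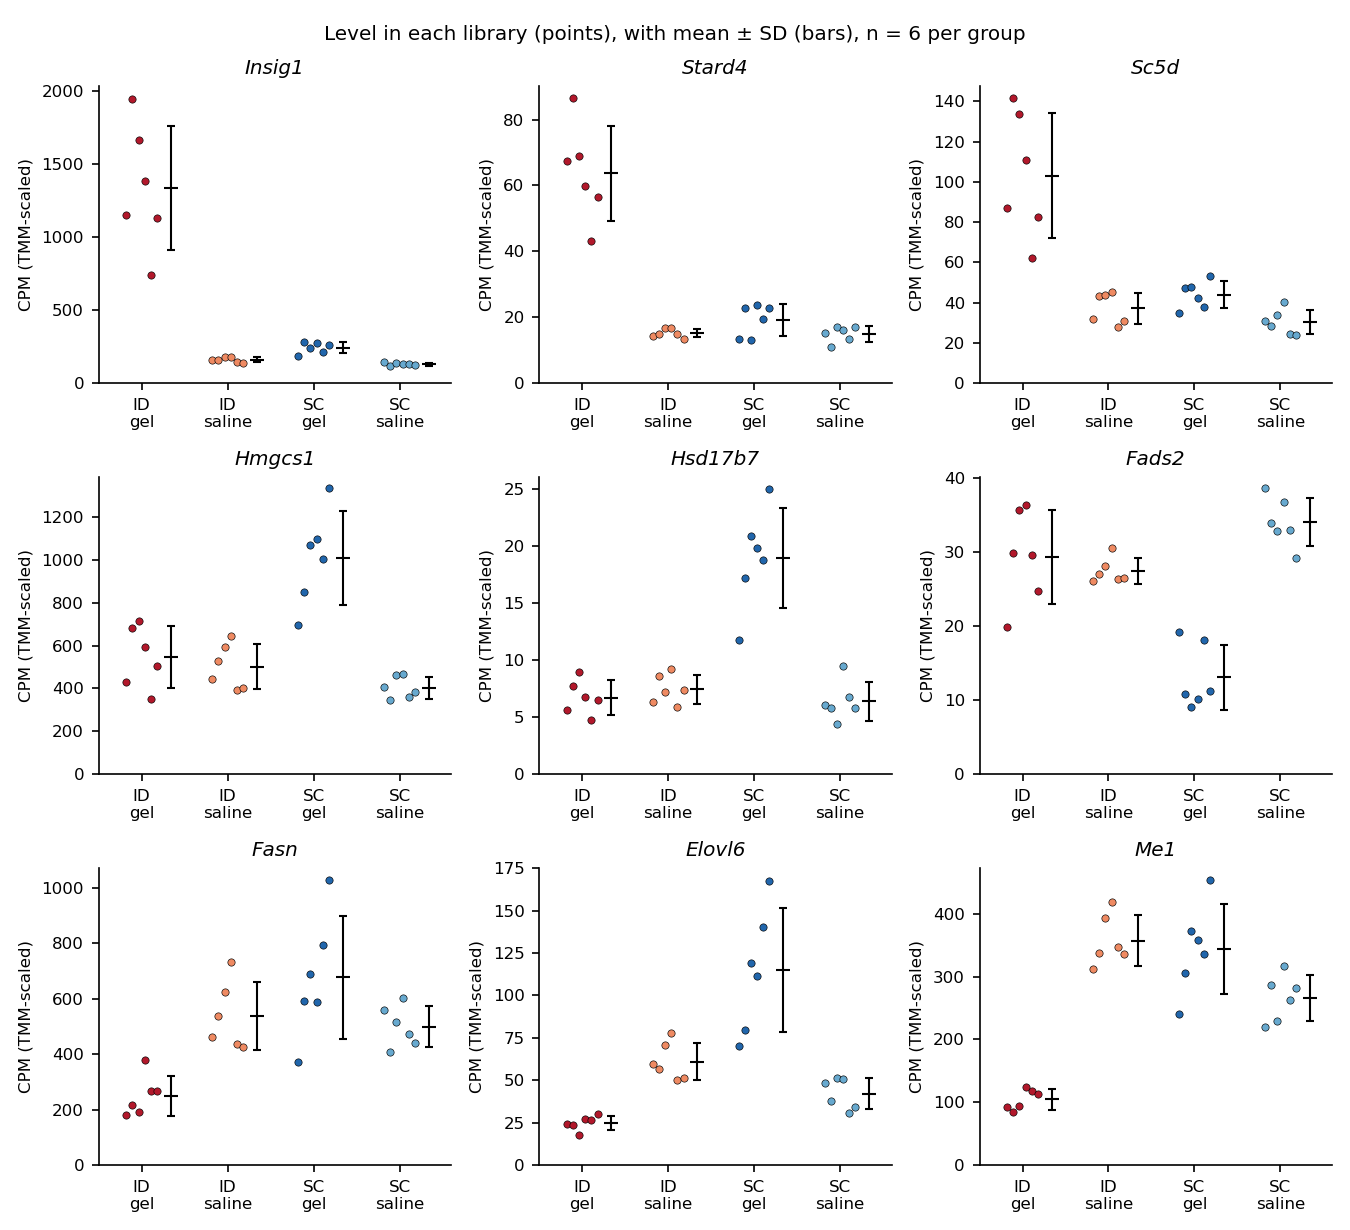
Level in CPM (TMM-scaled, linear axis) of 9 genes in each of the 24 libraries (points), with mean ± SD beside them, n = 6 per group. Insig1, Stard4 and Sc5d are highest in ID gel, Hmgcs1 and Hsd17b7 in SC gel, Fads2 is lowest in SC gel, and Fasn, Elovl6 and Me1 are lowest in ID gel.

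Of the mevalonate enzymes, 1 of 5, Mvd, was higher in ID gel and 5 of 5 were higher in SC gel. Of all tested genes, 36.6% were higher in ID gel and 24.7% in SC gel. Hmgcs1 (ENSRNOG00000016552), the HMG-CoA synthase at the entry of the pathway, had 352, 549 and 718 CPM (lowest, median, highest) in ID gel against 393, 488 and 643 CPM in ID saline. Its levels in SC gel were 698, 1038 and 1339 CPM, against 344, 395 and 468 CPM in SC saline. The ID libraries overlapped, and the SC gel libraries all lay above the SC saline libraries. Its log2 fold change was 0.12 ± 0.17 (adjusted p = 0.526) in ID gel and 1.32 ± 0.18 (2.50-fold; adjusted p = 1.96e-06) in SC gel. The difference of the gel effects, ID minus SC, was -1.20 ± 0.25 (adjusted p = 0.000246).

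Mvd, which decarboxylates mevalonate diphosphate, was higher at both depths, by 0.56 ± 0.15 in ID gel (adjusted p = 0.00218) and 0.92 ± 0.15 in SC gel (adjusted p = 3.34e-05). For the kinases Mvk and Pmvk and the isomerase Idi1, the log2 fold changes in ID gel were 0.26 ± 0.13, -0.13 ± 0.11 and 0.19 ± 0.18, with adjusted p of 0.073, 0.294 and 0.354. In SC gel these 3 genes were higher, by 0.41 ± 0.13, 0.61 ± 0.11 and 0.75 ± 0.18 in that order, although the calls of Mvk and Idi1 were lost with gel replicates 1 to 3 alone (0.43 and 0.47, adjusted p = 0.052 and 0.0656). No row is named Fdps, the farnesyl diphosphate synthase. A row named Rusc1 (ENSRNOG00000043377) carries the description and Entrez number of Fdps, so it was not counted as a member. That row averaged 307 ± 68.0 CPM in ID gel against 237.5 ± 43.8 CPM in ID saline, and 314 ± 67.4 CPM in SC gel against 173 ± 21.4 CPM in SC saline (SD, n = 6 each). It was higher at both depths, by 0.37 ± 0.16 (adjusted p = 0.0348) and 0.86 ± 0.16 (adjusted p = 8.84e-05) on the log2 scale.

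From squalene to cholesterol, 4 of 11 enzymes (36.4%) were higher in ID gel, near the 36.6% of all tested genes, and 11 of 11 were higher in SC gel, by 0.46 to 1.57 on the log2 scale. Hsd17b7, the ketoreductase of sterol demethylation, had the largest change of the 29 genes in SC gel. Its lowest, median and highest levels were 4.70, 6.66 and 8.94 CPM in ID gel against 5.92, 7.26 and 9.23 CPM in ID saline, with overlap. In SC gel they were 11.8, 19.3 and 25.1 CPM against 4.43, 5.93 and 9.49 CPM in SC saline, with no overlap. The log2 fold change was -0.15 ± 0.19 (adjusted p = 0.469) in ID gel and 1.57 ± 0.18 (2.96-fold; adjusted p = 3.96e-07) in SC gel, a difference of -1.72 ± 0.26 (adjusted p = 7.42e-06). Ebp, the sterol isomerase, had log2 fold changes of -0.25 ± 0.15 in ID gel (adjusted p = 0.137) and 1.28 ± 0.15 in SC gel (adjusted p = 5.38e-07), with a difference of -1.54 ± 0.22 (adjusted p = 3e-06). With the FPKM values Ebp was also called lower in ID gel.

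Msmo1 and Sqle were higher at both depths. Msmo1, the sterol methyl oxidase, had 131, 220.2 and 314 CPM in ID gel against 80.3, 110.4 and 133 CPM in ID saline. It had 147, 187 and 259 CPM in SC gel against 60.7, 72.5 and 95.7 CPM in SC saline. The lowest ID gel library lay just under the highest ID saline library, and the SC groups were apart. The log2 fold changes were 1.05 ± 0.18 (adjusted p = 1.64e-05) and 1.42 ± 0.18 (adjusted p = 1.32e-06). Sqle, the squalene epoxidase, had 182, 284 and 374 CPM in ID gel against 116, 159.5 and 195 CPM in ID saline. Its levels were 140.5, 219.5 and 263 CPM in SC gel against 92.3, 117 and 157 CPM in SC saline. Both pairs of groups overlapped, and the log2 fold changes were 0.86 ± 0.18 (adjusted p = 0.000124) in ID gel and 0.83 ± 0.18 (adjusted p = 0.000434) in SC gel. The differences between the depths were -0.37 ± 0.25 for Msmo1 (adjusted p = 0.223) and 0.03 ± 0.25 for Sqle (adjusted p = 0.921), which did not pass the test.

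Sc5d, the lathosterol desaturase near the end of the pathway, was the 1 sterol enzyme with a gel effect called larger in ID than in SC. It had 62.1, 98.9 and 142 CPM in ID gel against 27.7, 37.6 and 45.2 CPM in ID saline, with no overlap. In SC gel it had 34.9, 44.7 and 53.0 CPM against 24.1, 29.7 and 40.1 CPM in SC saline, with overlap. The log2 fold change was 1.47 ± 0.18 (2.77-fold; adjusted p = 1.35e-07) in ID gel and 0.53 ± 0.18 (adjusted p = 0.0167) in SC gel, a difference of 0.94 ± 0.25 (adjusted p = 0.00313). The difference was 0.51 or 0.52 and not called with the FPKM values (adjusted p = 0.105 and 0.115), and 0.63 and not called with gel replicates 4 to 6 alone (adjusted p = 0.0844). Dhcr7, the reductase of the last step of the Kandutsch-Russell branch, was higher by 0.44 ± 0.16 in ID gel (adjusted p = 0.015) and 0.46 ± 0.16 in SC gel (adjusted p = 0.0168). Its ID gel call was lost with the FPKM values and with gel replicates 4 to 6 alone, where it stood at 0.27 to 0.36, and its SC gel call was lost with gel replicates 4 to 6 alone (0.43, adjusted p = 0.0951).

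The other squalene-to-cholesterol enzymes were not called in ID gel and higher in SC gel. They are Fdft1 (squalene synthase), Lss (lanosterol synthase), Cyp51 (lanosterol demethylase), Tm7sf2 (a sterol reductase) and Nsdhl (a sterol dehydrogenase). Their log2 fold changes in ID gel ran from -0.10 for Tm7sf2 to 0.23 for Cyp51, and those in SC gel from 0.65 for Fdft1 to 0.94 for Tm7sf2. The difference of the gel effects was called for all 5 of them, from -1.05 for Tm7sf2 to -0.55 for Lss, although the Lss call was lost without SC gel replicate 6 (-0.47, adjusted p = 0.0533). With gel replicates 1 to 3 alone, 4 of these 5 calls were lost, those of Fdft1 (-0.47, adjusted p = 0.0757), Lss (-0.41, adjusted p = 0.179), Cyp51 (-0.45, adjusted p = 0.174) and Nsdhl (-0.47, adjusted p = 0.0862). ID gel against SC gel was not called for Fdft1 (-0.30, adjusted p = 0.0602), Lss (-0.29, adjusted p = 0.0823) and Cyp51 (-0.23, adjusted p = 0.239). In ID saline against SC saline these genes stood at 0.41, 0.25 and 0.48 in that order, not called.

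Stard4, a carrier of sterol between membranes, had the largest change in ID gel after Insig1. Its lowest, median and highest levels were 43.2, 63.6 and 86.4 CPM in ID gel against 13.4, 14.9 and 16.9 CPM in ID saline. In SC gel they were 13.1, 21.2 and 23.7 CPM against 10.9, 15.6 and 17.1 CPM in SC saline. The ID groups were well apart and the SC groups overlapped. On the log2 scale it changed by 2.07 ± 0.16 (4.20-fold; adjusted p = 1.09e-10) in ID gel and 0.36 ± 0.16 (adjusted p = 0.0678) in SC gel, a difference of 1.71 ± 0.23 (adjusted p = 1.49e-06). The SC gel value passed the threshold under 12 of 36 other settings, among them DESeq2, at 0.38 to 0.57.

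Of the 5 fatty acid synthesis enzymes, 3 (60.0%) were lower and 0 higher in ID gel, where 37.0% of all tested genes were lower. In SC gel 3 (60.0%) were higher and 0 lower, where 24.7% of all tested genes were higher. Me1, malic enzyme, a source of NADPH for fatty acid synthesis, had 84.4, 103 and 125 CPM in ID gel against 311, 342 and 419 CPM in ID saline, with no overlap. In SC gel it had 239.8, 347 and 454 CPM against 219, 272 and 317 CPM in SC saline, with overlap. Its log2 fold change was -1.77 ± 0.13 (adjusted p = 4.94e-11) in ID gel and 0.37 ± 0.13 (adjusted p = 0.0198) in SC gel. The SC gel call was lost without SC saline replicate 1 (0.32, adjusted p = 0.0519) and when only the SC libraries were fitted (0.35, adjusted p = 0.0664), and the value was 0.23 with gel replicates 1 to 3 alone (adjusted p = 0.184). The difference of the gel effects was -2.15 ± 0.19 (adjusted p = 9.88e-09).

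Fasn (ENSRNOG00000045636), fatty acid synthase, had 181, 240.2 and 378 CPM in ID gel against 426, 501 and 732 CPM in ID saline, with no overlap. It had 373, 639 and 1028 CPM in SC gel against 407.5, 494 and 603 CPM in SC saline, and the SC gel libraries reached both below and above the SC saline libraries. The log2 fold change was -1.10 ± 0.21 (0.465-fold; adjusted p = 4.06e-05) in ID gel and 0.44 ± 0.20 (adjusted p = 0.0748) in SC gel. The SC gel value passed the threshold under 8 of 36 other settings, among them DESeq2. The difference of the gel effects was -1.54 ± 0.29 (adjusted p = 8.69e-05).

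Acly, ATP citrate lyase, which makes cytosolic acetyl-CoA, had 223, 242 and 299 CPM in ID gel against 305.5, 340.3 and 435 CPM in ID saline, with no overlap. It had 292, 423 and 558 CPM in SC gel against 271, 300.0 and 348 CPM in SC saline, with overlap. Acly changed by -0.52 ± 0.12 (adjusted p = 0.000539) in ID gel and 0.46 ± 0.12 (adjusted p = 0.00294) in SC gel, a difference of -0.98 ± 0.17 (adjusted p = 4.13e-05). The SC gel call was lost with gel replicates 1 to 3 alone (0.33, adjusted p = 0.0589). Acaca, acetyl-CoA carboxylase, had 92.2, 108 and 128 CPM in ID gel against 92.0, 108 and 127 CPM in ID saline, which coincide. It had 125, 145 and 187 CPM in SC gel against 97.3, 105 and 117 CPM in SC saline, with no overlap. Its log2 fold change was 0.01 ± 0.10 (adjusted p = 0.965) in ID gel and 0.49 ± 0.10 (adjusted p = 0.000262) in SC gel, a difference of -0.49 ± 0.14 (adjusted p = 0.00512). Acss2, acetyl-CoA synthetase, had log2 fold changes of -0.02 ± 0.10 in ID gel (adjusted p = 0.858) and 0.20 ± 0.10 in SC gel (adjusted p = 0.0966), where 9 of 36 other settings called it higher.

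Both elongases were lower in ID gel and higher in SC gel, while of the desaturases Fads1 was higher in ID gel and Fads2 lower in SC gel. Elovl6, which elongates palmitate, had 17.7, 25.1 and 30.04 CPM in ID gel against 50.1, 57.9 and 77.7 CPM in ID saline. It had 70.3, 115 and 168 CPM in SC gel against 30.6, 43.0 and 51.3 CPM in SC saline. Neither pair of groups overlapped. On the log2 scale it changed by -1.30 ± 0.19 (0.406-fold; adjusted p = 1.5e-06) in ID gel and 1.44 ± 0.19 (2.72-fold; adjusted p = 1.37e-06) in SC gel, and the difference, -2.74 ± 0.27 (adjusted p = 3.19e-08), was the lowest among the 29 genes. Elovl5, which elongates polyunsaturated fatty acids, changed by -0.44 ± 0.14 in ID gel (adjusted p = 0.00612) and 1.19 ± 0.14 in SC gel (adjusted p = 3.52e-07). The ID gel call for Elovl5 was lost with gel replicates 4 to 6 alone (-0.30, adjusted p = 0.0589).

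Fads2, the entry desaturase of polyunsaturated fatty acid synthesis, was the 1 gene lower in SC gel. It had 19.9, 29.7 and 36.3 CPM in ID gel against 26.1, 26.8 and 30.6 CPM in ID saline, with overlap. In SC gel it had 9.02, 11.0 and 19.2 CPM against 29.3, 33.5 and 38.7 CPM in SC saline, with no overlap. The log2 fold change was 0.10 ± 0.16 (adjusted p = 0.601) in ID gel and -1.38 ± 0.16 (0.385-fold; adjusted p = 4.92e-07) in SC gel, a difference of 1.47 ± 0.23 (adjusted p = 1.01e-05). Fads1, the next desaturase of that route, was higher in ID gel by 0.67 ± 0.13 (adjusted p = 8.17e-05) and stood at -0.22 ± 0.13 in SC gel (adjusted p = 0.165).

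Tested directly, the gel effect differed between the depths for 22 of the 29 genes. It was higher in ID for 6 (Insig1, Stard4, Fads2, Sc5d, Fads1 and Srebf2) and lower in ID for 16, where 32.8% of all tested genes were higher and 23.0% lower. The median difference was -0.55 on the log2 scale, beside 0.12 for all tested genes. Without SC saline replicate 2 the median for all tested genes was -0.02, and 18 of the 29 genes were lower. By role, 9 of 16 sterol enzymes and 6 of 9 fatty acid enzymes were lower in this test. In the direct comparison of ID gel with SC gel, which shares its libraries with both gel effects, 7 genes were higher and 13 lower, where 40.1% of all tested genes were higher and 28.0% lower. The gel groups did not overlap for 10 of them, Insig1, Stard4, Sc5d, Srebf2 and Fads2 being higher in every ID gel library, and Elovl6, Me1, Hsd17b7, Elovl5 and Ebp lower in every ID gel library. Over all tested genes, 27.4% lay higher and 16.4% lower in every ID gel library than in every SC gel library.

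Few of the genes were called between the saline groups, although most log2 fold changes had the same direction. In ID saline against SC saline, Pmvk (0.45 ± 0.11, adjusted p = 0.0327) and Srebf1 (0.36 ± 0.09, adjusted p = 0.0293) were higher and 0 genes lower, where 1.67% of all tested genes were higher and 1.54% lower. Of the 29 log2 fold changes 27 were positive, with a median of 0.29, beside 0.01 for all tested genes. When the saline groups were exchanged, 16 genes were higher and 4 lower in ID gel against SC saline, where 36.3% of all tested genes were higher and 37.4% lower. In SC gel against ID saline 16 were higher and 1 lower, where 26.6% of all tested genes were higher and 26.2% lower. Under that exchange, ID minus SC gives the depth difference of gel skin plus that of saline skin. The gel effects cancel in it, so it does not test their difference. That sum was called higher for 10 and lower for 9, where 34.2% of all tested genes were higher and 24.5% lower.

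Within each group the genes tended to be high or low in the same libraries. ID gel replicate 5 was the lowest of its group for 22 of 29 genes and for 24.4% of all tested genes. ID gel replicates 2 and 4 were the highest for 14 and 11 genes, and for 20.2% and 18.2% of all tested genes. SC gel replicate 6 was the highest of its group for 21 genes and SC gel replicate 1 the lowest for 22, as they were for 11.2% and 20.6% of all tested genes. ID saline replicate 4 was the highest of its group for 24 genes, and SC saline replicate 4 for 16, as they were for 18.8% and 14.0% of all tested genes. Without ID gel replicate 5, 11 genes were higher and 5 lower in ID gel. Of the 14887 genes tested in that fit, 10941 were called, and 49.4% of the calls were higher. Without SC gel replicate 1, 26 genes were higher in SC gel, and without SC gel replicate 6, 23 were. Of the 14844 and 14847 genes tested in these fits, 7523 and 7187 were called, with 53.0% and 52.7% of the calls higher.

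On the FPKM scale, which allows for gene length, Hmgcs1 had the highest mean of the 29 genes in SC gel, ID saline and SC saline. In ID gel it was Insig1, with 448 ± 132 FPKM against 59.8 ± 8.5 FPKM in ID saline, 104 ± 15.4 FPKM in SC gel and 47.8 ± 7.72 FPKM in SC saline (SD, n = 6 each). Insig1 ranked 7th in each of those other groups. The summed FPKM of the 16 sterol enzymes was 703.5 ± 144 in ID gel against 597 ± 137 in ID saline, and 1090 ± 243.9 in SC gel against 454 ± 94.9 in SC saline. For the 9 fatty acid enzymes it was 238.5 ± 29.7 in ID gel against 425 ± 71.4 in ID saline, and 649.9 ± 149 in SC gel against 352.5 ± 49.9 in SC saline.

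**Figure D3:**
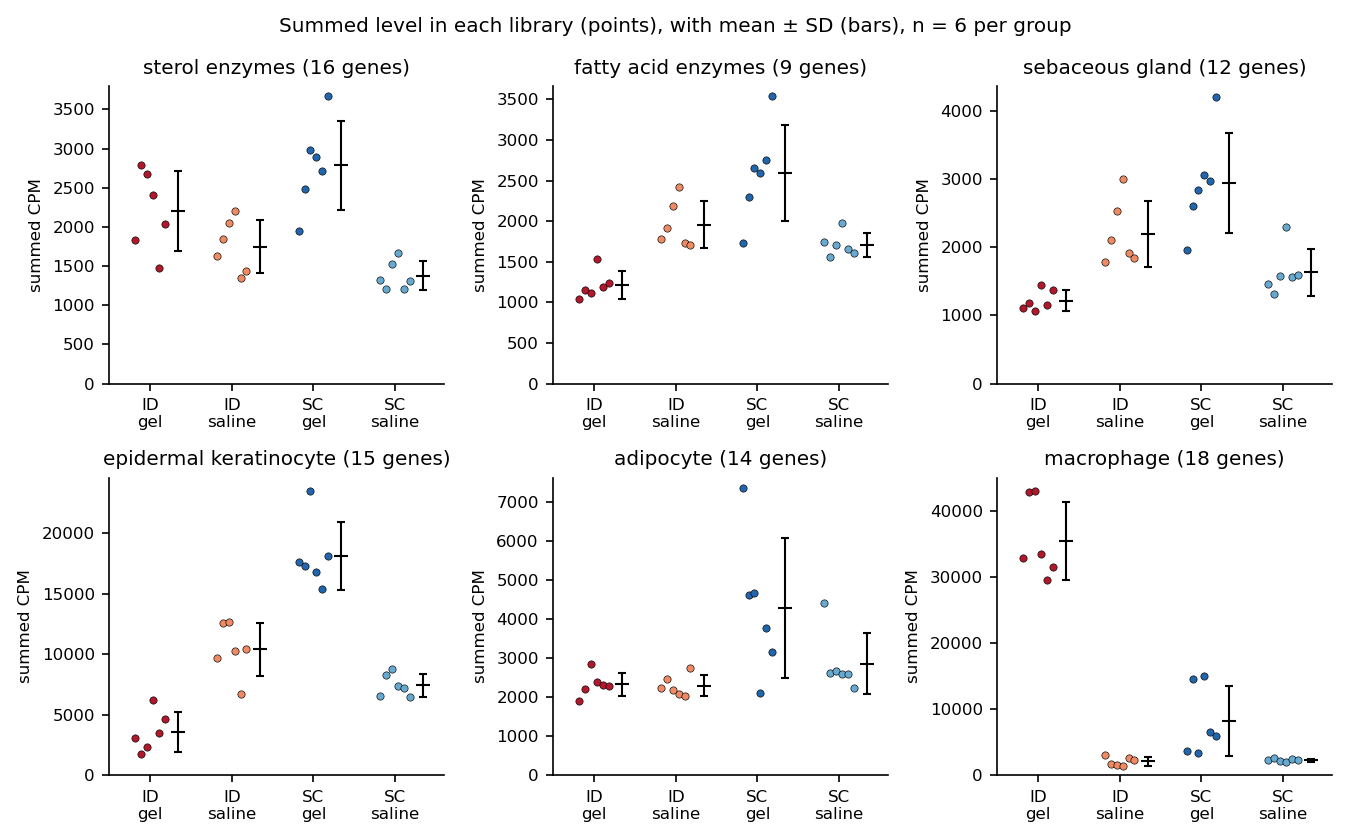
Summed CPM (linear axis) of the 16 sterol enzymes, the 9 fatty acid enzymes and 4 marker lists in each library (points), with mean ± SD beside them, n = 6 per group. The fatty acid enzymes, the sebaceous gland markers and the keratinocyte markers are lowest in ID gel and highest in SC gel, and the macrophage markers are highest in ID gel.

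Markers of several cell types differed between the same groups. Beside the marker counts, 36.6% of all tested genes were higher and 37.0% lower in ID gel. In SC gel 24.7% of all tested genes were higher and 26.1% lower. In bulk tissue, fewer cells of a type and less RNA per cell cannot be told apart. The sebaceous gland list shares Awat1, Awat2, Elovl3, Far2 and Soat1 with the pathway lists below. Of its 12 markers, 9 were lower in ID gel and 9 were higher in SC gel. Their summed level was 1064 to 1445 CPM in ID gel against 1779 to 3010 CPM in ID saline, and 1962 to 4214 CPM in SC gel against 1308 to 2298 CPM in SC saline. Of 15 epidermal keratinocyte markers, 15 were lower in ID gel, and 9 were higher and 1 lower in SC gel. Their sums were 1719 to 6217 CPM in ID gel against 6715 to 12640 CPM in ID saline, and 15390 to 23510 CPM in SC gel against 6424 to 8738 CPM in SC saline.

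Of 14 adipocyte markers, 9 were lower and 1 higher in ID gel, and 7 were higher and 1 lower in SC gel. Their sums were 1908 to 2850 CPM in ID gel against 2037 to 2753 CPM in ID saline, and 2100 to 7352 CPM in SC gel against 2237 to 4406 CPM in SC saline. Of 18 macrophage markers, 15 were higher in ID gel, and 11 were higher and 1 lower in SC gel. Their sums were 29470 to 42980 CPM in ID gel against 1331 to 3089 CPM in ID saline, and 3301 to 15000 CPM in SC gel against 1960 to 2626 CPM in SC saline. No marker of these 4 lists was at 0 in all libraries of a group. ID gel replicate 4, ID saline replicate 4, SC gel replicate 6 and SC saline replicate 4 had the highest summed sebaceous gland markers of their groups. Within ID gel the sebaceous gland sum was lowest in replicate 3 (1064 CPM). The macrophage sum was lowest in replicate 5 (29470 CPM), the lowest library for 22 of the 29 genes. ID gel replicate 2, the highest for 14 genes, had sums of 1179 CPM for sebaceous gland and 42810 CPM for macrophage markers. The part of these cell types in the results on sterol and fatty acid genes was not tested.

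Other genes of the same pathways were counted from lists. The shares of all tested genes were 36.6% higher and 37.0% lower in ID gel, and 24.7% higher and 26.1% lower in SC gel. Of 9 further acetyl-CoA, mevalonate and sterol genes, 4 were lower and 0 higher in ID gel (median -0.06), and 6 were higher and 2 lower in SC gel (median 0.72). Acat2, the cytosolic thiolase of the first step towards mevalonate, averaged 117.5 CPM in ID gel against 91.2 CPM in ID saline, and 143 CPM in SC gel against 68.5 CPM in SC saline. It stood at 0.37 ± 0.18 in ID gel (adjusted p = 0.0679) and was higher in SC gel by 1.06 ± 0.18 (adjusted p = 3.67e-05). Acat1, a mitochondrial thiolase, was lower at both depths, with log2 fold changes of -1.65 ± 0.10 in ID gel (adjusted p = 4.17e-12) and -0.84 ± 0.10 in SC gel (adjusted p = 6.39e-07).

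Of 12 genes of SREBP processing and sterol sensing, 2 were higher and 4 lower in ID gel, and 3 were higher and 3 lower in SC gel. The ID gel shares, 16.7% and 33.3%, were below the 36.6% and 37.0% of all tested genes. The SC gel shares, 25.0% and 25.0%, were near the 24.7% and 26.1% of all tested genes. Nfya, an NF-Y subunit, was higher by 0.90 ± 0.10 in ID gel (adjusted p = 1.22e-08) and 0.31 ± 0.09 in SC gel (adjusted p = 0.00803). Mbtps2, a protease that releases SREBPs, was higher by 0.50 ± 0.08 in ID gel (adjusted p = 6.08e-06), while Mylip, a ubiquitin ligase, changed by -0.58 ± 0.10 there (adjusted p = 1.82e-05). Scap, the escort of SREBPs, changed by -0.26 ± 0.07 in ID gel (adjusted p = 0.00314) and 0.31 ± 0.07 in SC gel (adjusted p = 0.00134).

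Of 22 further fatty acid genes, 13 were lower and 4 higher in ID gel (median -0.58), and 13 were higher and 3 lower in SC gel (median 0.47). Scd, stearoyl-CoA desaturase, stood at 0.10 ± 0.19 in ID gel (adjusted p = 0.637) and was higher in SC gel by 1.71 ± 0.20 (adjusted p = 2.93e-07). Its relative Scd2 was higher in ID gel by 1.97 ± 0.17 (adjusted p = 2.77e-10) and in SC gel by 0.45 ± 0.16 (adjusted p = 0.0234). The sources used here do not say how reads shared by such near copies were counted. Of 20 triglyceride, wax and lipid droplet genes, 11 were lower and 5 higher in ID gel, and 10 were higher and 3 lower in SC gel. Among the largest, Far2, which makes fatty alcohols for waxes, changed by -1.29 ± 0.24 in ID gel (adjusted p = 4.84e-05) and 2.51 ± 0.25 in SC gel (adjusted p = 3.49e-08). Acsl4, an acyl-CoA synthetase for polyunsaturated fatty acids, was higher in ID gel by 1.54 ± 0.11 (adjusted p = 2.67e-11).

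Genes of cholesterol uptake, trafficking and efflux were mostly higher at both depths, 13 of 19 in ID gel with 1 lower, and 12 of 19 in SC gel with 4 lower. Lipa, the lysosomal acid lipase, was higher by 3.32 ± 0.32 and 1.94 ± 0.31 (adjusted p = 2.89e-09 and 1.68e-05). Ch25h, which makes an oxysterol, was higher in ID gel by 3.98 ± 0.32 (adjusted p = 1.09e-10). The cholesterol exporters Abca1 and Abcg1 were also higher, Abca1 by 1.29 ± 0.10 in ID gel and 0.89 ± 0.10 in SC gel, and Abcg1 by 0.93 ± 0.09 and 1.09 ± 0.09, in the same order. Nr1h3, which encodes a liver X receptor, stood at 0.20 ± 0.10 in ID gel (adjusted p = 0.0685) and was higher in SC gel by 0.53 ± 0.10 (adjusted p = 0.000112).

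**Figure D4:**
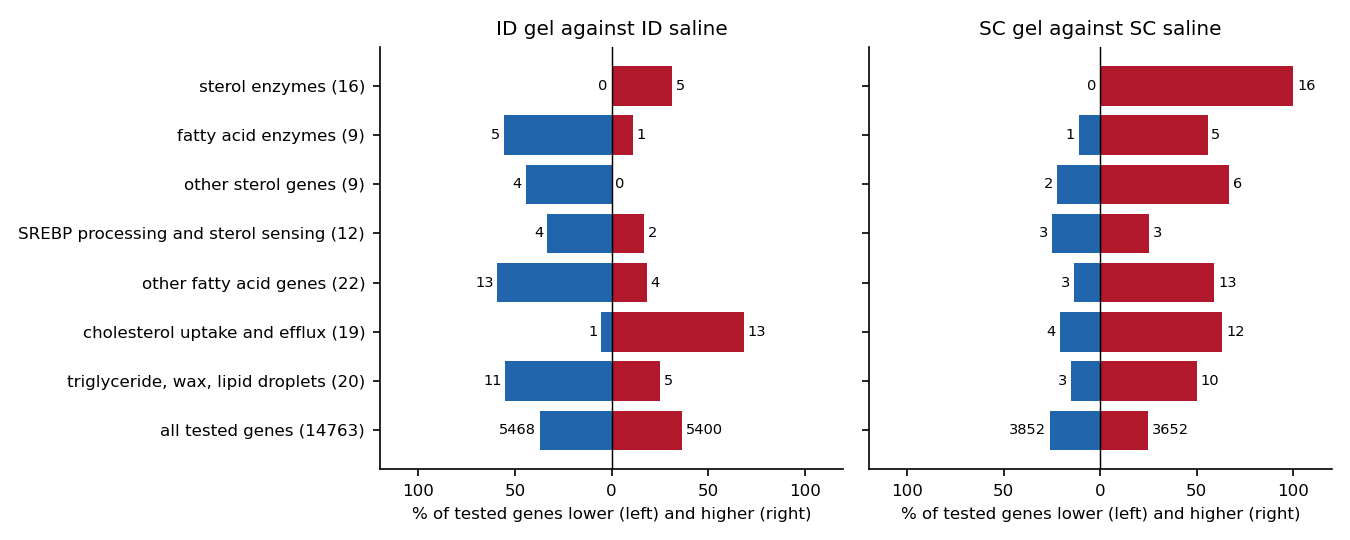
Share of the tested genes of each list called higher (red, right) or lower (blue, left) at an adjusted p under 0.05, with the counts at the bar ends, for ID gel against ID saline (left panel) and SC gel against SC saline (right panel). All 16 sterol enzymes are higher in SC gel, against 5 of 16 in ID gel, and the bottom bar gives all 14763 tested genes.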

How the data were processed

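Bulk RNA sequencing of 24 libraries from rat dorsal skin was analysed, 6 in each of 4 groups taken from the sample titles. Total RNA was made into stranded mRNA libraries, per the labels' protocols. The deposited table holds whole-number read counts per gene and library, per the file headers, with no normalization by the authors found in them. FPKM values were deposited too, and each was the count over gene length and library total, times a constant, within 0.0325%. The submitters' processing notes name the build Rnor_6.0, DESeq2 1.12.4, StringTie 1.3.3b, Trimmomatic 0.36 and FastQC 0.11.2, in no stated order. The aligner, counting program and strand setting were not given in the sources used here, and no coordinates of the deposited table are printed.

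Counts were fitted with edgeR 4.0.16 in R 4.3.3 (filterByExpr by group, TMM, 4 group means, quasi-likelihood test with 20 residual degrees of freedom, two-sided), with Benjamini-Hochberg adjustment over 14763 genes at 0.05. Standard errors are the absolute log2 fold change divided by the root of the F statistic. The same fit was also run on simulated counts, drawn with means and spreads taken from the main fit. The outcome of that run is not reported here. The members, lists and the rule for named genes were chosen with earlier results of these data known. By that rule all members are named, and lowest, median and highest library levels are given for Hmgcs1, Sqle, Insig1, Srebf1, Srebf2, Acly, Acaca and Fasn. The same holds for the 3 largest called changes in each direction for each gel effect and for their difference. From the other lists at most 3 per direction are named, besides Scd, Abca1, Abcg1 and Nr1h3. Some further genes that this rule would name are not reported here. Where a name repeated, the row with most counts was used, and 900 genes whose name and Entrez number disagree were left out of lists. Alternatives were DESeq2 1.42.0, limma 3.58.1 (voom, and a trend fit on log2 FPKM plus 1 or 0.1), other filters and size factors, a replicate block, other sets of libraries, and leaving out each library. The labels name no pairing, so the numbers were not taken as pairs. Same-numbered libraries of different groups correlated at -0.241 to 0.421, with 13 of 36 pairs over 0.1. Differently numbered libraries were not compared in this way, so these values cannot show whether the numbers mark pairs. Confidence in single values is limited by 6 libraries a group and by sampling of 14024353 to 18821730 counts each.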

Additional observations from a re-analysis of the deposited data

Results flagged for a closer look

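For 3 members, 1 level stood apart from the other libraries of its group by Dixon's gap test at the 95% level, out of 116 pairs of a gene and a group, and chance alone flags about 1 in 20 groups. Acly in ID gel replicate 4 was at 299 CPM, the highest of its group. Nsdhl in SC saline replicate 4 was at 69.2 CPM and Elovl5 in the same library at 394.5 CPM, each the highest of its group.

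The interaction test found a gel effect that differed between the depths for 22 of the 29 members and for 2 of the 4 further named pathway genes. Of all 14763 tested genes, 8234 were called in that test. In ID the effect was higher for 32.8% of all tested genes and lower for 23.0%. Differences are ID minus SC on the log2 scale, at an adjusted p under 0.05 from edgeR's quasi-likelihood test.

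Effects were higher in ID for Insig1 (2.17), Stard4 (1.71), Fads2 (1.47), Sc5d (0.94), Fads1 (0.89), Srebf2 (0.68) and Abca1 (0.40). The Abca1 difference was lost under 11 of 35 settings, among them 7 that leave out 1 library each (0.26 to 0.35). Another of them was the exchange of the saline groups (0.16), which does not compare gel effects.

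Among sterol genes, effects were lower in ID for Hsd17b7 (-1.72), Ebp (-1.54), Hmgcs1 (-1.20) and Tm7sf2 (-1.05). The same held for Pmvk (-0.74), Fdft1 (-0.71), Cyp51 (-0.70), Nsdhl (-0.70) and Lss (-0.55).

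Among fatty acid genes and their regulator, effects were lower in ID for Elovl6 (-2.74), Me1 (-2.15), Elovl5 (-1.63), Scd (-1.61), Fasn (-1.54), Acly (-0.98), Acaca (-0.49) and Srebf1 (-0.39). Macrophage, keratinocyte and sebaceous gland markers differed between the same groups, and their part in these differences was not tested.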

How the results depend on the processing

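Across 36 other settings the counts of members called in ID gel and SC gel kept within 1.5 times their values, except with the saline groups exchanged. That exchange gave 16 members higher in ID gel, and for the difference of the gel effects 10 higher and 9 lower. It turned Pmvk (0.32) and Fdft1 (0.34) in ID gel and Me1 (-0.052) in SC gel. For the difference of the gel effects the exchange is no check, because the gel effects cancel. It then gives the ID minus SC difference of gel skin plus that of saline skin. That sum, counted among the 35 settings for the difference, was called higher for 10 members and lower for 9. It was 0.43 for Mvk, 0.15 for Pmvk, 0.10 for Fdft1, 0.25 for Cyp51, 0.72 for Msmo1 and 0.34 for Srebf1. Lss, Tm7sf2 and Nsdhl were not called for it. The exchange ended the calls of Elovl5 in ID gel and of Mvk, Pmvk, Fdft1, Sc5d, Dhcr7 and Acly in SC gel. The difference for Idi1, not called above, was called under 16 of 35 settings. The members' calls in SC gel were 19 higher with gel replicates 1 to 3 alone and 25 with replicates 4 to 6 alone, and the calls lower for the difference were 12 and 18. Of the 15005 and 15003 genes tested in these fits, 3360 and 3276 were higher in SC gel. For the difference, 3741 and 2456 of them were lower.

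Limma on log2 FPKM plus 1 (or plus 0.1) called 5827 (5737) of all genes higher and 1986 (1949) lower in SC gel, so that 74.6% of the calls were higher, against 48.7% in the edgeR fit. For the difference of the gel effects it called 2397 (2348) higher and 5143 (5165) lower, 31.8% (31.3%) higher against 58.8%. It called 3029 (3013) genes higher in ID gel against SC gel, where Abca1 turned to -0.064 (-0.066). The all-gene median for the difference was -0.20 (-0.24) on that scale, and the members were then 4 higher and 20 lower.

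ID saline against SC saline depended most on the setting. All genes called were 515 higher and 523 lower with DESeq2, 905 and 695 with voom, 470 (421) higher with FPKM plus 1 (0.1), 151 lower with no filter and 408 lower with only the saline groups. Members called were 4 higher with voom, and 4 higher and 1 lower with only the saline groups. Leaving out 1 library gave 70 to 455 of all genes higher, 62 to 433 lower and 0 to 3 members higher, the fewest genes without SC saline replicate 2. Without that library 4885 genes were higher and 2692 lower in SC gel. For the difference of the gel effects 3689 were then higher and 4095 lower, against 4845 and 3389 with all libraries. In ID gel against SC gel 4684 were higher and 5197 lower, against 5918 and 4132. The cause of these shifts was not tested.

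With a replicate block, members called were 11 higher and 5 lower in ID gel, 23 higher and 1 lower in SC gel, and 6 higher and 17 lower for the difference. Of all 14763 genes tested with it, 5428 were higher and 5490 lower in ID gel, and 3649 and 3893 in SC gel. For the difference these counts were 4842 and 3408. The block added the calls of Mvk in ID gel and Idi1 for the difference. A further 130 sign changes, over all settings, concerned values called in neither fit. The difference of the gel effects was not run with only the groups of 1 contrast, and the saline comparison was not run with the gel libraries divided. At 14024353 or more counts per library, precision rests mainly on the spread among 6 libraries.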
